A study of Sus scrofa with 4 samples.

Results

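The 9 genes described here encode enzymes of the tricarboxylic acid cycle, namely CS, IDH3A, IDH3B, IDH3G, OGDH, SUCLG1, SDHA, FH and MDH2. They were chosen by gene symbol, each symbol matched a single row, and they are 9 of the 16050 genes with values in the table. Their messenger RNA was measured in 4 Smart-seq2 libraries of porcine oocytes at metaphase II, 2 labelled Control (Control 1 and Control 2) and 2 labelled Cu (Cu 1 and Cu 3). All oocytes came from ovaries collected at a slaughterhouse and were matured in vitro inside their cumulus cells, for up to 44 h by the methods. The Cu oocytes were exposed to copper sulfate at 25 μg/mL during this culture, the dose the study used for its experiments, whereas the Control oocytes received none. Each library pooled 3 oocytes, and the methods describe 3 sets per group, so the third library of each group was not analysed here on its own. The labels give no strain or age, and they do not say whether the sets came from separate animals or cultures, so that the p-values measure only the spread between these libraries.

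The tricarboxylic acid cycle runs in the mitochondrial matrix. It oxidises the acetyl group of acetyl-CoA to carbon dioxide and passes the electrons to the respiratory chain as NADH and through succinate dehydrogenase. Mammalian oocytes carry out little glycolysis and take up pyruvate from their surroundings and their cumulus cells, which they oxidise through this cycle.

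The values are FPKM, fragments scaled by transcript length and by the size of the library, and levels of different genes were compared on this scale. The scaling does not correct for oligo-dT priming and PCR amplification, and their part in the level of each gene was not tested. Ratios between genes are therefore ratios of FPKM and not of transcript numbers. The number of reads behind an FPKM value cannot be recovered, so depth is unknown. The summed FPKM ranged from 616082 to 672681, and from 7923 to 9364 genes reached 1 FPKM, the most in Cu 1. The oocyte markers on the list used here summed to between 7944 and 10655 FPKM, the highest in Cu 1, and all 14 were at 1 FPKM or more in 3 libraries and 13 of 14 in Control 2. Of 14 cumulus and granulosa markers 9 had values, which summed to between 2.33 FPKM in Control 1 and 7.68 FPKM in Cu 1, with AMH listed at 0 in every library. The highest of them was GREM1, at 0.9, 1.78, 5.05 and 1.86 FPKM in Control 1, Control 2, Cu 1 and Cu 3. VCAN reached 1.43 FPKM in Control 2. Of 5 leukocyte markers 2 had values, which summed to between 0.09 FPKM in Cu 3 and 2 FPKM in Cu 1. Most of the sum in Cu 1 was CD3E, at 1.68 FPKM there and at 0 in Control 1, Control 2 and Cu 3. PTPRC did not exceed 0.32 FPKM. The group names, and with them the direction of every difference between Cu and Control, rest on the labels alone. ATP5PF, NDUFB3, NDUFAB1 and NDUFA13, the mitochondrial genes that the study also measured by quantitative PCR, were all higher in both libraries labelled Cu than in both labelled Control. The study reported these genes as lower in Cu-exposed oocytes, by sequencing and by quantitative PCR, so the deposited values go the opposite way. The FPKM of ATP5PF was 119 and 86.0 in the Control libraries, and 309 and 771 in Cu 1 and 3. Expression was compared as log2(FPKM + 1) with limma over 8541 genes, those that reached 1 FPKM in 2 or more libraries. The added 1 makes fold changes of weak genes smaller.

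The cycle genes differed far more from each other than between the groups, and citrate synthase stood above the other 8. CS, which joins acetyl-CoA to oxaloacetate, had between 229 and 606 FPKM and lay between the 97.4th and 99.0th percentile of all genes with values in the 4 libraries. It made up from 79.5% to 83.2% of the summed FPKM of the 9 genes. IDH3A, MDH2, SDHA and FH formed a middle range, from 7.79 FPKM for SDHA in Cu 3 to 39.3 FPKM for MDH2 in Cu 1. SUCLG1 followed with 3.59 to 12.9 FPKM. IDH3B, IDH3G and OGDH were weak, with 0.07 to 4.86 FPKM, and lay between the 25.5th and the 62.4th percentile.

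In this order, the step from CS to IDH3A was the only one between neighbours whose ranges did not overlap. It was 3.79 ± 0.52 on the log2(FPKM + 1) scale (mean ± SD over the 4 libraries), and CS was higher in 4 of 4 libraries. Within each library, MDH2 was also above SDHA, FH above SUCLG1 and SUCLG1 above IDH3B in 4 of 4 libraries, by 0.50 ± 0.39, 1.10 ± 0.23 and 1.58 ± 0.37. The differences between IDH3A and MDH2 (0.15 ± 0.54), SDHA and FH (0.34 ± 0.51), IDH3B and IDH3G (0.44 ± 0.81) and IDH3G and OGDH (0.07 ± 0.30) were smaller than their spread.

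**Figure D1:**
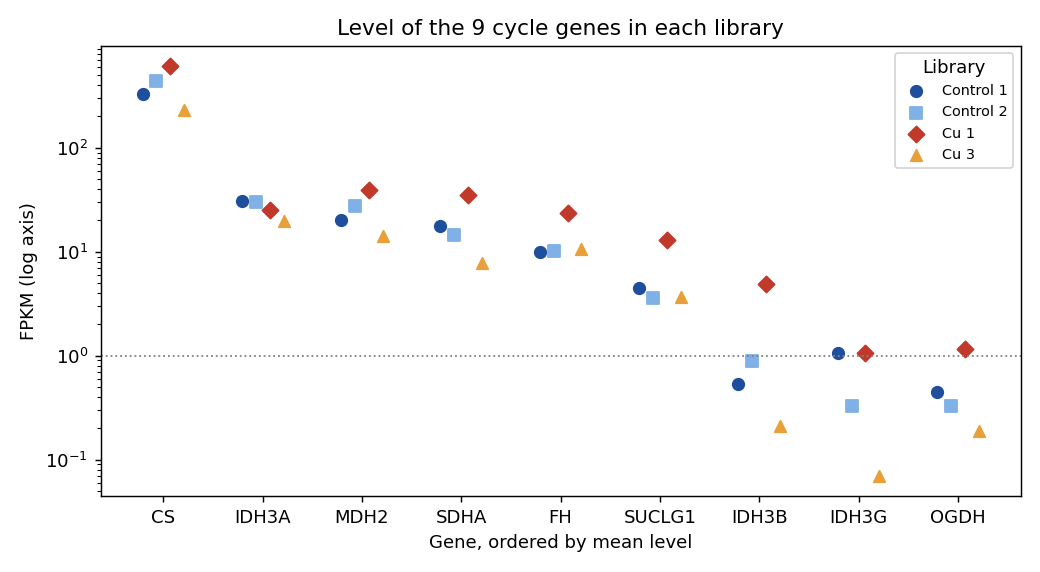
Level of each cycle gene in FPKM (log axis) for the libraries Control 1, Control 2, Cu 1 and Cu 3, 1 point per library, with genes ordered by mean level and a dotted line at 1 FPKM. CS lies between 229 and 606 FPKM, above all other points, and IDH3B, IDH3G and OGDH lie around or below 1 FPKM apart from IDH3B in Cu 1 (4.86 FPKM).

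To learn whether Cu exposure changed the messenger RNA of the cycle, the groups were compared gene by gene. None of the 9 genes was called. Of the 9, 7 passed the filter on low values, and 0 of these had an adjusted p of 0.05 or less, as for all tested genes (0.0%), with the smallest adjusted p of all genes at 0.631. At an unadjusted p of 0.05 or less, 0 of the 7 were called by limma, against 599 or 7.01% of all tested genes. IDH3B and OGDH did not pass the filter, and without it their unadjusted p was 0.482 and 0.569 in limma's test. The median log2 fold change of all 9 genes was 0.07, beside 0.08 over all genes with values and 0.16 over all tested genes. It turned to -0.17 with median-of-ratios scaling and -0.10 with quantile normalization, beside -0.04 and -0.07 over all tested genes.

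CS (identifier 397519, Sscrofa11.1 chromosome 5, 21669778 to 21700737) had 330 FPKM in Control 1, 435 FPKM in Control 2, 606 FPKM in Cu 1 and 229 FPKM in Cu 3. Cu 1 was thus above both Control libraries and Cu 3 below both. The log2 fold change was -0.02 with a standard error of 0.49 (adjusted p = 0.993 in limma's test).

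The NAD-dependent isocitrate dehydrogenase is built from the catalytic alpha subunit IDH3A and the beta and gamma subunits IDH3B and IDH3G, and its reaction is one of the regulated steps of the cycle. IDH3A (identifier 100157242, chromosome 7, 47759436 to 47778948) had 31.0 FPKM in Control 1, 30.4 FPKM in Control 2, 25.4 FPKM in Cu 1 and 19.9 FPKM in Cu 3. It was the only one of the 9 genes with both Cu libraries below both Control libraries, a position held by 13.4% of all tested genes. The log2 fold change was -0.43 with a standard error of 0.32 (adjusted p = 0.785 in limma's test). It was negative under every alternative tried, from -0.67 with median-of-ratios scaling to -0.26 without Cu 3. Given the position of its libraries, leaving one out could not have changed this sign.

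IDH3B (identifier 733641, chromosome 17, 32955061 to 32960110) had 0.54 and 0.89 FPKM in the Control libraries, 4.86 FPKM in Cu 1 and 0.21 FPKM in Cu 3. Cu 1 was 23.1 times as high as Cu 3, the widest gap of the 9 genes between the Cu libraries, and the Control libraries lay between them. IDH3G (identifier 100525850, chromosome X, 124528643 to 124537570) had 1.07 FPKM in Control 1, 0.33 FPKM in Control 2, 1.06 FPKM in Cu 1 and 0.07 FPKM in Cu 3. Here Cu 1 lay within the range of the Control libraries and Cu 3 below it. At such levels the number of reads behind a value is not known, and the log2 fold changes were 0.64 for IDH3B, which was not tested, and -0.16 (standard error 0.45 and adjusted p = 0.946 with limma) for IDH3G.

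OGDH (identifier 100515636, chromosome 18, 50609415 to 50684990) encodes the first enzyme of the 2-oxoglutarate dehydrogenase complex. It had 0.45 and 0.33 FPKM in the Control libraries, 1.15 FPKM in Cu 1 and 0.19 FPKM in Cu 3. Again Cu 1 was the highest and Cu 3 the lowest library. The log2 fold change of 0.20 was not tested, as only Cu 1 reached 1 FPKM.

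SUCLG1 (identifier 399539, chromosome 3, 60142340 to 60177497) encodes the alpha subunit of succinate-CoA ligase, which forms ATP or GTP. It had 4.47 and 3.59 FPKM in the Control libraries, 12.9 FPKM in Cu 1 and 3.69 FPKM in Cu 3. Cu 1 was far above the rest, and Cu 3 lay between the Control libraries. With a log2 fold change of 0.69 and a standard error of 0.58, its adjusted p was 0.802 in limma's test.

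SDHA (identifier 780433, chromosome 16, 79838442 to 79862956) is the flavoprotein subunit of succinate dehydrogenase, the enzyme that is also complex II of the respiratory chain. Its FPKM was 17.7 and 14.4 in Control 1 and 2, and 35.0 and 7.79 in Cu 1 and 3. The Control libraries lay between the Cu libraries, which differed 4.50-fold. The log2 fold change of SDHA was 0.07 with a standard error of 0.68 (adjusted p = 0.987 in limma's test).

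FH (identifier 100627128, chromosome 10, 12404143 to 12431843), the hydratase that turns fumarate into malate, had 10.01 and 10.2 FPKM in the Control libraries, 23.5 FPKM in Cu 1 and 10.6 FPKM in Cu 3. In it alone of the 9 the Cu libraries were both above the Control libraries, as in 25.4% of all tested genes, although Cu 3 lay close to the Control libraries. The log2 fold change was 0.60 with a standard error of 0.45 (adjusted p = 0.785 in limma's test), and it was 0.06 when Cu 1 was left out.

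MDH2 (identifier 397039, chromosome 3, 10120121 to 10132705) is the malate dehydrogenase that restores oxaloacetate. It had 20.04 FPKM in Control 1, 27.5 FPKM in Control 2, 39.3 FPKM in Cu 1 and 14.2 FPKM in Cu 3. Cu 1 was above and Cu 3 below both Control libraries, as for CS. The log2 fold change of MDH2 was 0.01 with a standard error of 0.53 (adjusted p = 0.994 in limma's test).

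**Figure D2:**
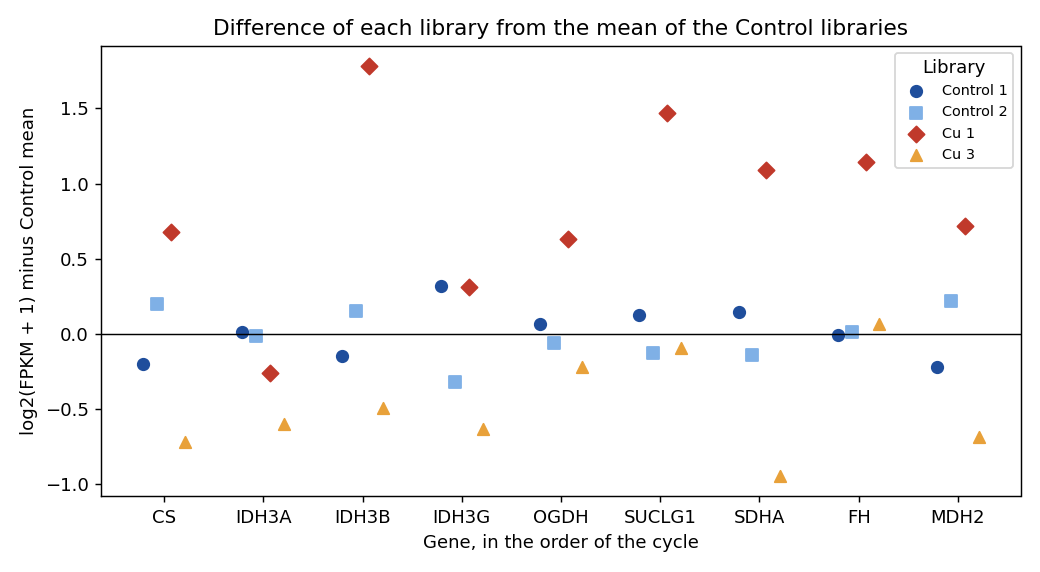
Difference of each library from the mean of the Control libraries on the log2(FPKM + 1) scale (vertical axis) for the 9 cycle genes in the order of the reactions, with 1 point each for Control 1, Control 2, Cu 1 and Cu 3. Cu 1 lies above 0 for all genes except IDH3A (-0.26), and Cu 3 lies below 0 for all except FH (0.06).

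In most of the 9 genes, IDH3A and FH excepted, the 2 Cu libraries departed from the Control mean in opposite directions. This comparison was chosen after the values had been seen, and no test of it was made. For CS, IDH3B, OGDH, SDHA and MDH2, 5 of the 9 genes, Cu 1 was above and Cu 3 below both Control libraries, a position held by 15.1% of all 16050 genes with values. Among the genes that passed the filter it was held by 3 of the 7 (CS, SDHA and MDH2) and by 18.5% of all tested genes. The median difference of the 9 genes from the Control mean was 0.72 in Cu 1 and -0.60 in Cu 3 on the log2(FPKM + 1) scale. Over all tested genes it was 0.31 in Cu 1 and 0.00 in Cu 3, and over all genes with values 0.15 and 0.00.

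Because Cu 1 was high for genes in general, the same values were computed after 2 other scalings. With median-of-ratios scaling, which set the median log2 fold change of all tested genes at -0.04, the median difference of the 9 genes was 0.41 in Cu 1 and -0.62 in Cu 3, beside -0.08 and -0.01 over all tested genes. With quantile normalization it was 0.50 and -0.60, beside -0.12 and -0.03. The same 5 genes kept the opposite position under both, while the share of all tested genes there was 11% and 11.5%. Of the 5, IDH3B and OGDH did not pass the filter, so the count to set beside these shares is 3 of 7. FH stayed above and IDH3A below both Control libraries in the 2 Cu libraries. Cu 1 exceeded Cu 3 in 9 of the 9 genes as deposited and in 8 after either scaling, where IDH3A was the exception. Among all tested genes the share was 65.7% as deposited and 45.3% after either. Among all 16050 genes with values Cu 1 was the higher in 9991 as deposited.

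Leaving out a Cu library decided the direction of the comparison. Without Cu 3 the median log2 fold change of the 9 genes was 0.72, and 5 genes had an unadjusted p of 0.05 or less with limma, as did 34.6% of all tested genes. These were CS, SUCLG1, SDHA, FH and MDH2, and the adjusted p was 0.011 for SUCLG1, 0.027 for SDHA and 0.025 for FH in that fit, in which 1755 of all tested genes (20.5%) reached 0.05. Without Cu 1 the median was -0.60, and CS and SDHA, at log2 fold changes of -0.72 and -0.95, had an unadjusted p of 0.05 or less (15.5% of all tested genes did), while none of the 9 did after adjustment in limma's test (186 or 2.18% of all tested genes did). In these fits the lone Cu library is assumed to vary as the Control libraries do, so that they describe that library and not the exposure. Cu 1 was also the library with the most genes at 1 FPKM and the highest summed levels of oocyte, cumulus and leukocyte markers. The cumulus sum there was mostly GREM1 and the leukocyte sum mostly CD3E. Of the oocyte markers, GDF9, ZP3, NLRP5, MOS, FIGLA, NPM2, ZAR1 and OOEP were highest in Cu 1, whereas DAZL, DPPA3, ZP4 and DDX4 were lowest. The part of these differences in the result was not tested. FPKM are scaled to the size of the library and show neither the number of intact cells in a pool nor the RNA per cell. These cannot be told apart here.

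The authors' mean FPKM of each group, which is that of 3 libraries by its decimals, set the groups close together for CS and SDHA. It was 357 for Control and 360 for Cu in CS, and 16.6 in both groups in SDHA. For MDH2 it was 19.6 and 25.4, for FH 11.6 and 14.6, and for SUCLG1 4.43 and 7.32. IDH3A was the only member with a lower mean in Cu, with 29.2 for Control and 23.0 for Cu. These means carry no SD here.

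The summed FPKM of the 9 genes was 415 and 522 in Control 1 and 2, and 750 and 286 in Cu 1 and 3, which is 0.0635%, 0.0848%, 0.113% and 0.0425% of all FPKM. The Control libraries lay between the Cu libraries, as for CS itself. On the log2 scale the groups differed by -0.01, with an SD of 0.23 for Control and of 0.98 for Cu (exact permutation test over the 4 libraries, two-sided, p = 1.0). With 2 libraries against 2 this test cannot give a p below 0.333. Without CS the sums were 85.3, 87.6, 143 and 56.6 FPKM in the same order of libraries.

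Apart from the added 1, ratios between genes of one library do not depend on how that library was scaled, and 9 such ratios were compared. Of the 9, 4 had groups that did not overlap, namely SUCLG2/SUCLA2, IDH1/IDH2, IDH2/IDH3A and OGDH/DLST. Each was at the smallest p the design allows (exact permutation test, two-sided, p = 0.333, or 0.749 adjusted over the 9). Groups without overlap were common among single tested genes, with Cu the higher group in 25.4% and the lower in 13.4%. The share among ratios of other gene pairs was not computed, so whether 4 of 9 exceeds it was not tested. With 0.1 in place of 1 added to the FPKM only SUCLG2/SUCLA2 remained apart. The ratio differed more between the Cu libraries than between the Control libraries in 7 of the 9 on the log2 scale with 1 added. Several of the 9 share a gene, and how often other gene pairs differ in this way was not computed.

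SUCLG2 and SUCLA2 encode the beta subunits that make succinate-CoA ligase form GTP or ATP, respectively, and both pair with SUCLG1. The plain ratio of SUCLG2 to SUCLA2 was 13.1 and 5.91 in Control 1 and 2, and 3.36 and 1.39 in Cu 1 and 3. All libraries had more SUCLG2, and the excess was smaller in both Cu libraries. The difference of the log2 ratio was -1.87, with an SD of 0.67 between the Control and 0.86 between the Cu libraries. It ranged from -2.47 to -1.26 when each library was left out. Its sign could not have changed there, as both Cu libraries lay below both Control libraries.

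The messenger RNAs of the isocitrate dehydrogenase subunits were uneven. The plain ratio of IDH3A to IDH3B was 57.5 and 34.2 in the Control libraries, and 5.23 and 94.6 in Cu 1 and 3. The ratio of IDH3A to IDH3G was 29.0 and 92.2 in the Control libraries, and 24.0 and 284 in Cu 1 and 3. The messenger RNA of the catalytic subunit therefore had the highest FPKM of these subunits in every library, and the proteins were not measured. In both plain ratios the Control libraries lay between the Cu libraries, which was so for neither with 1 added to the FPKM. Between IDH3B and IDH3G the order was not fixed, with plain ratios of 0.505 and 2.7 in Control 1 and 2, and 4.58 and 3 in Cu 1 and 3.

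In succinate dehydrogenase the ratio of SDHA to the iron-sulfur subunit SDHB was 0.0318 and 0.0257 in the Control libraries, and 0.0672 and 0.00903 in Cu 1 and 3. SDHB thus exceeded SDHA in all libraries, and the log2 ratio spanned 2.76 between the Cu libraries against 0.29 between the Control libraries. The ratio of OGDH to DLST, the next enzyme of its complex, was 0.0277 and 0.0205 in the Control libraries, and 0.0410 and 0.00853 in Cu 1 and 3, so that without the added 1 the groups overlapped.

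Between compartments, the cytosolic MDH1 had 0.216 and 0.259 times the FPKM of MDH2 in the Control libraries, and 0.206 and 0.343 times in Cu 1 and 3. The messenger RNA of the mitochondrial enzyme was higher throughout. For the NADP-dependent isocitrate dehydrogenases the cytosolic IDH1 was the higher, with 33.6 and 25 times the FPKM of the mitochondrial IDH2 in the Control libraries, and 11.3 and 29.1 times in Cu 1 and 3. IDH2 in turn had 0.0380 and 0.0750 times the FPKM of IDH3A in the Control libraries, and 0.0814 and 0.0634 times in Cu 1 and 3, so that this pair of groups also overlapped without the added 1.

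**Figure D3:**
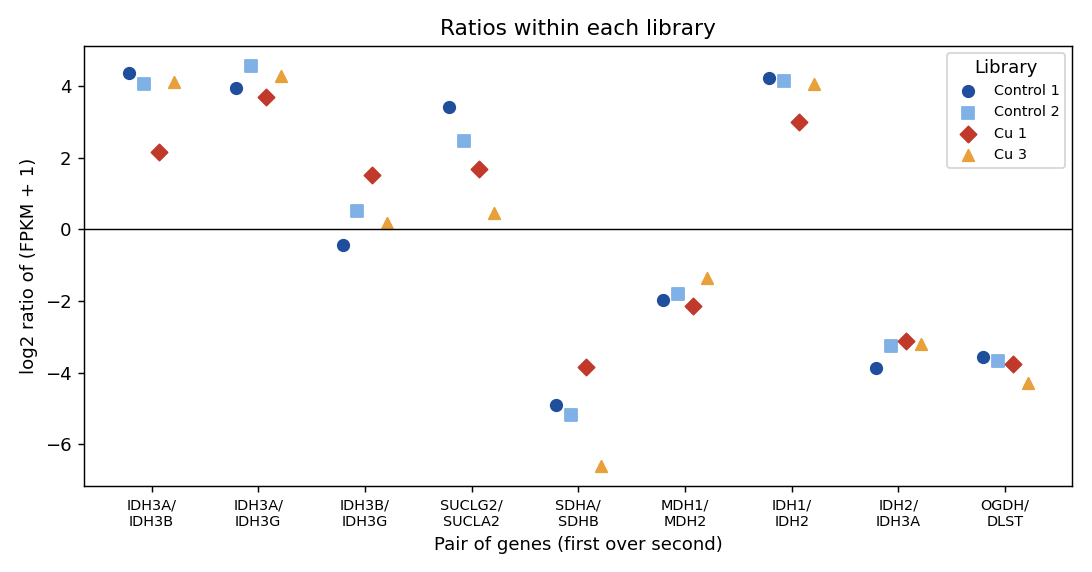
The log2 ratio of FPKM + 1 (vertical axis) for 9 pairs of genes, with 1 point each for Control 1, Control 2, Cu 1 and Cu 3. For SUCLG2/SUCLA2 both Cu libraries lie below both Control libraries, and for SDHA/SDHB Cu 1 (-3.86) and Cu 3 (-6.62) lie on opposite sides of the Control libraries.

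The other subunits and isoforms of the cycle did not follow the pattern of the 9 genes throughout. Of the 9 such genes described here 8 were tested, and 1 was called at an unadjusted p of 0.05, namely SDHD, beside 7.01% of all tested genes, and 0 after adjustment in limma's test. SDHD, a membrane anchor of succinate dehydrogenase, had 27.7 FPKM in Control 1, 36.5 FPKM in Control 2, 50.2 FPKM in Cu 1 and 84.6 FPKM in Cu 3. Both Cu libraries were higher, with Cu 3 the highest. On the log2 scale the change was 1.01 ± 0.38 (SE), with an adjusted p = 0.656 (unadjusted 0.037) in limma's test.

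SDHB, at 556, 558, 521 and 863 FPKM in Control 1, Control 2, Cu 1 and Cu 3, exceeded CS in every library but Cu 1. In contrast to SDHA, SDHB was lowest in Cu 1 and highest in Cu 3. SDHC, the other membrane anchor, had 37.1, 26.3, 32.3 and 17.6 FPKM in the same order. The 4 subunits of this one enzyme therefore differed in which Cu library was the higher, Cu 1 for SDHA and SDHC and Cu 3 for SDHB and SDHD.

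The 2-oxoglutarate dehydrogenase components DLST and DLD were higher than OGDH. DLST, the succinyltransferase, had 16.2 and 16.1 FPKM in the Control libraries, 28.1 FPKM in Cu 1 and 22.3 FPKM in Cu 3. The fold change (log2) was 0.60 ± 0.33 (SE), with an adjusted p = 0.730 in limma's test. DLD, the dihydrolipoamide dehydrogenase that also serves the pyruvate dehydrogenase complex, had 13.9, 20.4, 13.3 and 20.8 FPKM in Control 1, Control 2, Cu 1 and Cu 3, with no separation of the groups. OGDHL, a relative of OGDH, did not exceed 0.27 FPKM.

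SUCLA2 had 3.84 and 11.8 FPKM in the Control libraries, 13.01 FPKM in Cu 1 and 24.0 FPKM in Cu 3. This gave a log2 fold change of 1.25 ± 0.58 (SE), with an adjusted p = 0.709 in limma's test. SUCLG2 had 50.4 and 69.5 FPKM in the Control libraries, 43.7 FPKM in Cu 1 and 33.5 FPKM in Cu 3. Its log2 fold change was -0.62 ± 0.34 (SE), with an adjusted p = 0.728 in limma's test. In both genes the groups did not overlap, in opposite directions. Groups without overlap are common here, with Cu the higher in 21.8% of all genes with values and the lower in 10.1%. Among these 9 other subunits and isoforms Cu was the higher in 4 and the lower in 1. IDH2 was at 1.18 to 2.28 FPKM with overlapping groups. Over these 9 other subunits and isoforms the median difference from the Control mean was 0.20 in Cu 1 and 0.28 in Cu 3, beside 0.72 and -0.60 for the 9 genes described above.

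**Figure D4:**
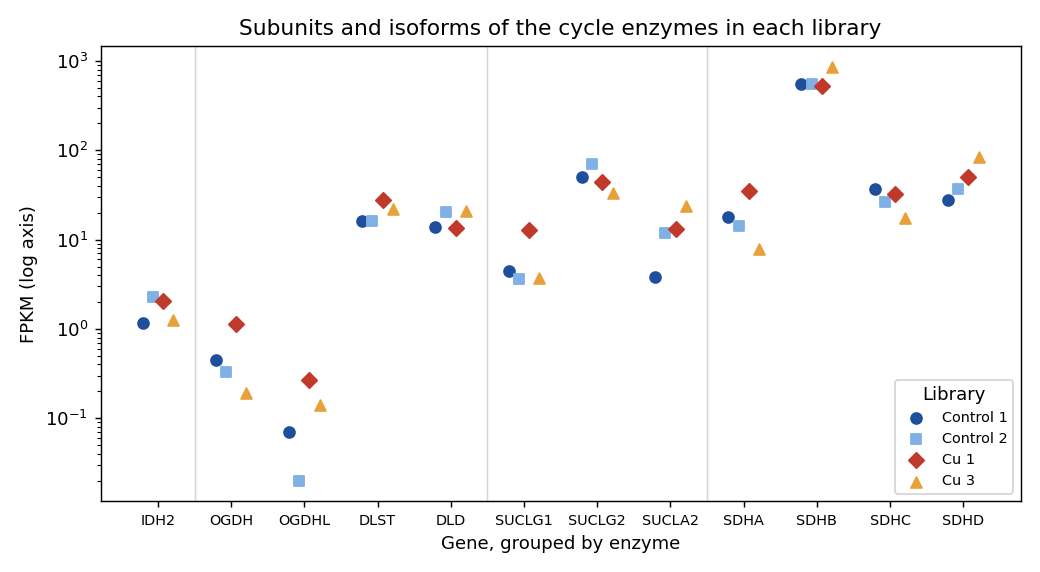
FPKM (log axis) of subunits and isoforms of the cycle enzymes, with OGDH, SUCLG1 and SDHA from the 9 genes beside their partners and vertical lines between enzymes, 1 point each for Control 1, Control 2, Cu 1 and Cu 3. In succinate dehydrogenase, Cu 1 is the highest point for SDHA (35.0 FPKM) and Cu 3 the highest for SDHB (863 FPKM) and SDHD (84.6 FPKM).

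Acetyl-CoA enters the cycle from pyruvate through the mitochondrial pyruvate carrier and the pyruvate dehydrogenase complex. Of the 14 genes of this entry 11 were tested, and 0 had an unadjusted p of 0.05 or less with limma. Of the 14, 3 were higher in either Cu library than in any Control library (PDHA1, PDP1 and PDP2) and 3 were lower (PDHB, PDK1 and PDK3), beside 21.8% and 10.1% of all genes with values. DLAT alone of the 14 had Cu 1 above and Cu 3 below. By size of fold change PDK2, PDHA1 and MPC1 led. PDK2, a kinase that inhibits pyruvate dehydrogenase, had 0.02, 0.65, 2.97 and 0.27 FPKM in Control 1, Control 2, Cu 1 and Cu 3 and was not tested.

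PDHA1, the catalytic alpha subunit of pyruvate dehydrogenase, had 11.8 and 13.8 FPKM in the Control libraries, 27.0 FPKM in Cu 1 and 16.3 FPKM in Cu 3. On the log2 scale the change was 0.68 ± 0.38 (SE), with an adjusted p = 0.738 in limma's test. MPC1, a subunit of the pyruvate carrier, had 75.1, 38.4, 112 and 63.2 FPKM in Control 1, Control 2, Cu 1 and Cu 3, with overlapping groups. PC, which makes oxaloacetate from pyruvate, did not exceed 0.04 FPKM.

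Of 17 genes for cytosolic counterparts, replenishing reactions and shuttles, 16 had values and 12 were tested, and 0 had an unadjusted p of 0.05 or less with limma. The largest fold changes were those of IDH1, SLC25A11 and ME2. ME2, the mitochondrial malic enzyme that turns malate into pyruvate, was in the range of CS, with 377 FPKM in Control 1, 394 FPKM in Control 2, 242 FPKM in Cu 1 and 272 FPKM in Cu 3. Both Cu libraries were below both Control libraries and close to each other. The fold change (log2) was -0.58 ± 0.25 (SE), with an adjusted p = 0.709 (unadjusted 0.060) in limma's test.

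IDH1 had 39.6 and 56.9 FPKM in the Control libraries, 23.4 FPKM in Cu 1 and 36.7 FPKM in Cu 3. This gave a log2 fold change of -0.68 ± 0.38 (SE), with an adjusted p = 0.733 in limma's test. SLC25A11, the carrier that exchanges 2-oxoglutarate for malate, had 3.94, 4.35, 16.5 and 2.61 FPKM in Control 1, Control 2, Cu 1 and Cu 3, so that Cu 1 was above and Cu 3 below both Control libraries. It was the only one of the 16 in that position. Groups without overlap were found in others of the 16, with Cu the higher in 4 and the lower in 2, beside 21.8% and 10.1% of all genes with values. The median difference from the Control mean was 0.17 in Cu 1 and 0.01 in Cu 3 over these 16 genes, and 0.19 and -0.20 over the 14 of pyruvate entry. The median log2 fold change was 0.11 over the 16 genes, -0.06 over the 14 and 0.20 over the 9 other subunits and isoforms, beside 0.08 over all genes with values. Over the tested genes of each list these medians were 0.10, -0.09 and 0.12, and with median-of-ratios scaling all 3 were negative, at -0.14, -0.34 and -0.08. These medians also moved with single libraries. For the counterparts and shuttles the median was -0.18 without Control 1, 0.19 without Control 2, -0.08 without Cu 1 and 0.17 without Cu 3. For pyruvate entry it was -0.21 without Cu 1 and 0.27 without Cu 3, and for the other subunits and isoforms 0.06 without Control 1, 0.27 without Control 2 and 0.36 without Cu 1.

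The tested genes outside these lists whose profile over the 4 libraries was nearest to the median profile of the 9 were PTBP1, KANSL1, PLEKHJ1, PDIA5 and ESPL1. Their root-mean-square distance from it, on log2(FPKM + 1) centred on each gene's own mean, was between 0.0569 and 0.0611. The distance of the 9 genes themselves was between 0.164 for OGDH and 0.479 for IDH3A, the member farthest from the median. PTBP1, an RNA-binding protein of splicing, had 20.03 and 20.3 FPKM in the Control libraries, 36.6 FPKM in Cu 1 and 15.1 FPKM in Cu 3. With 4 libraries and 8541 genes such likeness is a description of these libraries only.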

How the data were processed

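RNA of porcine oocytes was sequenced in 4 libraries (Control 1 and 2, Cu 1 and 3), grouped by their titles. By the paper's methods the authors filtered reads with SOAPnuke 1.5.2, mapped them with HISAT2 2.0.4 and Bowtie2 2.2.5 and calculated expression with RSEM 1.2.12. The submitters' processing notes name TopHat2 2.0.13 and Cufflinks 2.2.1 instead, with the build Sscrofa11.1, and which of these made the table is not settled. Oligo-dT priming reads polyadenylated transcripts, and reads shared between similar genes are divided by estimate. The deposited values are FPKM, rounded to 2 decimals, for 16050 of 30684 rows. Group means of FPKM by the authors stand beside them.

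The 8541 genes that reached 1 FPKM in 2 or more libraries were tested on log2(FPKM + 1) with limma 3.58.1 in R 4.3.3 (eBayes with a variance trend, two-sided, Benjamini-Hochberg adjustment). FPKM are not counts, so no count test such as the study's was run. The fit was tested on simulated data. Single values were compared by an exact permutation test over the libraries. The 9 genes and the other lists were chosen with earlier results of these data known. Named were the 9 genes, all genes of the ratios and of the other subunits, the 3 genes of each further list with the largest absolute fold change, and the 5 nearest profiles. A gene of the list of other subunits and isoforms is not reported here and was left out of the counts and medians of that list. Others were named after their values were seen. Coordinates are those of RefSeq genes on Sscrofa11.1, matched by identifier. Alternatives were the pseudocount, the filter, the scaling, the variance trend and leaving out each library.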

Additional observations from a re-analysis of the deposited data

How the results depend on the processing

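No paired analysis was run, because the labels do not pair Control with Cu libraries by animal or culture. The groups also share only replicate number 1. Depth is unknown, so how precisely IDH3B, IDH3G and OGDH were measured is not known. Leaving out each library in turn moved most results. The number of all tested genes with an adjusted p up to 0.05 (limma) was 0 under every other alternative and ranged from 0 to 1755, the number at an unadjusted p of 0.05 from 127 to 2958 (599 with all libraries), and the number with a log2 fold change of 1.5 in addition from 91 to 782 (160 with all libraries, and 270 with a pseudocount of 0.1). Of the 9 genes, from 0 to 5 reached an unadjusted p of 0.05. Their median log2 fold change ranged from -0.60 to 0.72, the difference of their summed level from -0.70 to 0.69, and the number of ratios with separate groups from 5 to 9 (4 with all libraries, and 1 with a pseudocount of 0.1). Leaving out a library cannot make separate groups overlap, so in those fits the number of such ratios could not fall. For single genes the log2 fold change ranged from -0.72 to 0.68 for CS, -0.50 to 1.78 for IDH3B, -0.63 to 0.31 for IDH3G, -0.22 to 0.63 for OGDH, -0.10 to 1.47 for SUCLG1, -0.95 to 1.09 for SDHA and -0.69 to 0.72 for MDH2. The differences of the log2 ratios ranged from -0.58 to 0.031 for IDH3A/IDH3G, -1.58 to 1.18 for SDHA/SDHB and -0.25 to 0.52 for MDH1/MDH2. IDH3A and FH kept their direction in all 11 alternatives run for each. Leaving out a library could not reverse it, as both Cu libraries lay on one side of both Control libraries. The filter and the variance trend do not enter the fold change of a gene. With all libraries, the sign changed under quantile normalization for OGDH (-0.044), SDHA (-0.10) and MDH2 (-0.14), under median-of-ratios scaling for SDHA (-0.17) and MDH2 (-0.23), by the authors' means for CS (0.012) and IDH3G (0.13), for the summed level without CS (0.058) and for IDH3A/IDH3G with a pseudocount of 0.1 (0.23). Apart from leaving out a library, these causes were not tested. The authors' means, the sum without CS and the scalings of the opposite positions were chosen after seeing the data.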
